A study of Zea mays with 33 samples.

Results

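The white, immature inner parts of the leaf (V2_LF-I) were compared with the green, expanded leaf blades (V2_LF) of seedlings of the maize inbred line B73, in 3 libraries of each kind out of 33 libraries in all. The 6 libraries were chosen by their tissue label alone. Seedlings were at V2, the stage at which 2 leaves have a ligule, and each library was made from 1 plant. V2_LF-I pooled the white parts of leaf 3 and of the younger leaves inside it, and V2_LF pooled the green expanded parts of leaves 1 to 4. All plants were of the same genotype, carried the condition code WW in their titles, which the labels do not spell out, and grew in the same greenhouse. The labels give no treatment for either group and the same sowing and harvest dates, 10 days apart, so that the groups differ by the part of the leaf and by the leaves it was taken from. RNA was selected by its polyA tail, and gene expression was measured by stranded paired-end RNA sequencing. In a pooled tissue, fewer cells of a type and less RNA per cell cannot be told apart.

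A grass leaf grows from its base. New cells are made in the basal meristem, enlarge inside the whorl of older leaves, and turn green only when they emerge into the light. The white inner leaf therefore holds dividing and elongating cells whose plastids are not yet chloroplasts. The expanded blade holds mature mesophyll and bundle sheath cells, which share the work of C4 photosynthesis and put much of their mRNA into a small number of very abundant transcripts.

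Reads counted on genes ran from 17.6 to 32.8 M per library in V2_LF-I and from 19.9 to 22.8 M in V2_LF. Replicates were much more alike than tissues. Across the genes tested, Pearson's r of log2 levels was 0.984 to 0.989 between replicates and 0.766 to 0.818 between a white and a green library. Genes are not independent replicates, and these values describe the libraries. Levels are given as CPM, counts relative to library size after scaling by the TMM method, which lines up the libraries on their typical gene. The TMM factor was 0.993 to 1.10 in V2_LF-I and 0.479 to 0.481 in V2_LF, so that 1 read was worth 0.0286 to 0.0573 CPM in the white leaf and 0.0914 to 0.104 CPM in the blade. For this reason a CPM value in the blade is about 2 times what plain library sizes would give.

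The reads of the green blade were concentrated on few genes, and those of the white leaf were spread over many. The most abundant gene held 3.03, 3.00 and 3.22% of the gene reads in V2_LF replicates 1 to 3, and 0.826, 0.930 and 0.764% in those of V2_LF-I. The 100 most abundant genes held 43.8, 42.3 and 41.3% in the blade against 15.7, 17.3 and 15.7% in the white leaf. Every blade library thus lay far above every white library. The difference in means was 9.13 percentage points for the top 10 genes, 26.2 for the top 100 and 25.8 for the top 1000. The top 1000 held 69.9% ± 0.287 (SD, n = 3) of the reads in V2_LF and 44.1% ± 1.23 (SD, n = 3) in V2_LF-I. Groups of 3 did not overlap in any of these measures, and the exact two-sided permutation test gave p = 0.1, the smallest value that 3 against 3 allows. Fewer features had a read in the blade, 25849 ± 254 (SD, n = 3) against 27642 ± 411 (SD, n = 3) of 46430.

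**Figure D1:**
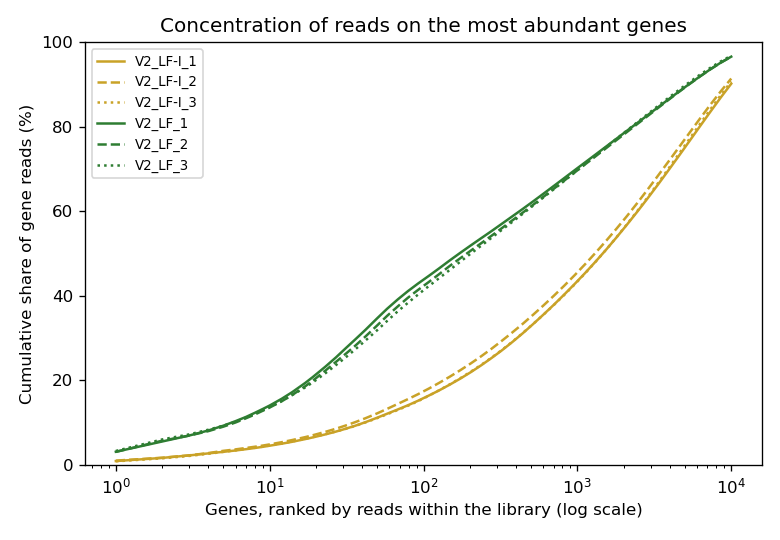
Cumulative share of gene reads (%) against the number of genes, ranked by reads within each library (log scale), for the 3 V2_LF-I libraries (yellow) and the 3 V2_LF libraries (green). At 100 genes the green lines lie between 41.3 and 43.8% and the yellow lines between 15.7 and 17.3%.

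The 100 genes with the largest mean share of reads in each tissue shared 54 members, 54% of each list. All 100 of the blade's list were lower in the white leaf by the test given below, 54 of them more than 8-fold, with a median log2 fold change of -3.15 (white minus green). Since this list was chosen by its level in the blade, its direction is a description. The same genes still held 11.6% ± 1.00 (SD, n = 3) of the reads of the white leaf. In 8 of the other 9 tissues of the series they held between 0.718% (older seed, DAP35_S) and 3.49% (internode, PS_IN1) on average. The exception was the adult blade at pollen shed (PS_LF), with 25.5% ± 2.43 (SD, n = 3). The white leaf thus carried more of the blade's abundant transcripts than the roots (0.790% ± 0.0493, SD, n = 3) or the hypocotyl (1.44% ± 0.0965, SD, n = 3) of 4-day seedlings, which grew under other conditions. How much of this came from green tissue taken along with the white parts was not tested. The white leaf's own list of 100 held 16.2% ± 0.922 (SD, n = 3) of its reads and 31.8% ± 1.82 (SD, n = 3) of the blade's. Of it, 30 genes were higher and 61 lower in the white leaf.

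Most genes differed between the tissues. Higher and lower in V2_LF-I were called with the quasi-likelihood test of edgeR, where the p-value after Benjamini-Hochberg adjustment over 28997 tested genes lay under 0.05. By this rule 9912 genes (34.2% of those tested) were higher and 9083 (31.3%) were lower in the white leaf. Beyond 2-fold there were 7802 higher (26.9%) and 6512 lower (22.5%), beyond 8-fold 3215 (11.1%) and 2178 (7.51%), and beyond 32-fold 1487 (5.13%) and 723 (2.49%). Large differences were therefore more often towards the white leaf, on this scale. Scaled by library size alone, the median log2 fold change of all genes moved from 0.00 to 1.09, and the calls moved from 52.2% higher to 80.2% higher, with 16508 higher and 4064 lower. All folds here are relative to the typical gene.

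Of the 156 genes tested with a mean of 1000 CPM and over in the V2 leaf, 6 were higher in the white leaf and 146 were lower. The 9912 higher genes held 46.4% ± 2.34 (SD, n = 3) of the reads in V2_LF-I and 6.32% ± 0.546 (SD, n = 3) in V2_LF. The 9083 lower genes held 36.7% ± 1.96 (SD, n = 3) and 85.8% ± 0.880 (SD, n = 3). Of the genes more than 8-fold apart, the higher ones had a median of 9.03 CPM in the white leaf and 0.238 CPM in the blade, and took 12.3% of the white leaf's reads. The lower ones had medians of 0.714 and 18.9 CPM, and took 40.1% of the blade's reads. These medians are on the TMM scale. By plain library sizes the blade medians would be lower, so their contrast with those of the white leaf depends on the scale.

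By level of expression in the V2 leaf, the calls leaned towards the white leaf among weakly expressed genes and towards the blade among abundant ones. Genes were placed in 5 classes by their mean CPM over the same 6 libraries, so that a gene very abundant in the blade falls in a high class by that fact, and the lean is a description with no test. Of the 7255 genes tested with a mean under 1 CPM, 17.6% were higher and 11.1% lower in the white leaf, and 5175 passed in neither direction. Since genes were admitted to the test on all 33 libraries, this class can hold genes with almost no V2 reads. On the 6 V2 libraries alone 22793 genes were admitted, against 28997. Of the 7600 with 1 to 10 CPM, 46.1% were higher and 26.8% lower, with a median log2 fold change of 0.48. This was the class that leaned most towards the white leaf. The middle class, 11848 genes of 10 to 100 CPM, was nearly even, with 4568 higher, 4817 lower and a median of -0.06. Of the 2138 genes with 100 to 1000 CPM, 554 were higher and 1281 lower, with a median of -0.97. Of the 156 with 1000 CPM and over, 6 were higher and 146 lower, 73 of these by more than 8-fold, and the median was -2.89. These 156 genes held 47.2% ± 1.18 (SD, n = 3) of the blade's reads and 16.0% ± 1.01 (SD, n = 3) of the white leaf's.

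**Figure D2:**
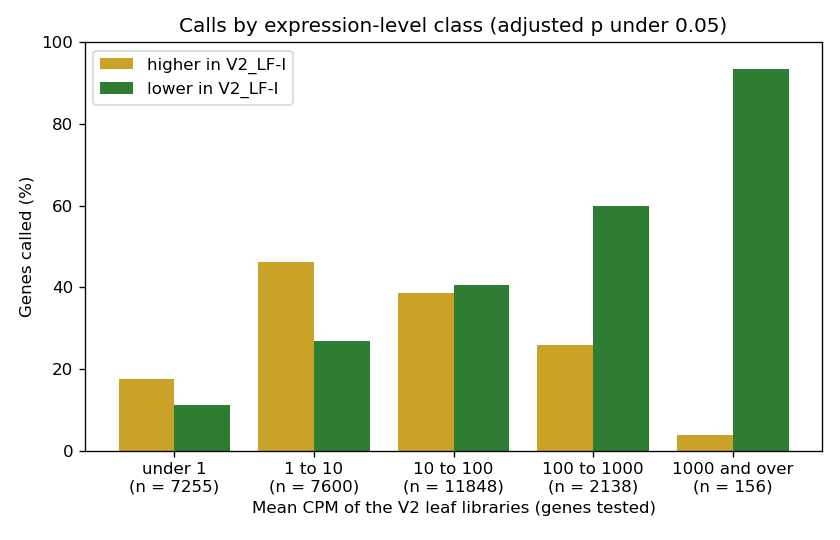
Share of genes tested (%) that were called higher (yellow) or lower (green) in V2_LF-I, by class of mean CPM over the 6 V2 libraries, with the number of genes tested under each class. The higher calls fall from 46.1% at 1 to 10 CPM to 3.85% at 1000 CPM and over, while the lower calls rise from 11.1% to 93.6%.

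The lean of abundant genes towards the blade is not seen when abundance is measured elsewhere. With classes set by the mean of the other 27 libraries, which hold no V2 leaf, the 1765 genes of 100 to 1000 CPM had 693 higher and 639 lower, and the 48 genes of 1000 CPM and over had 12 higher and 16 lower. Both had a median log2 fold change of 0.00, and those of the lower 3 classes were 0.00, 0.17 and -0.01. Genes were admitted to the test on all 33 libraries, so these classes can hold genes with few or no V2 reads. In neither direction passed 433 of the 1765 genes and 20 of the 48. How far genes with few V2 reads set the medians of 0.00 was not tested. The class of 1 to 10 CPM still leaned towards the white leaf, with 3228 higher and 2397 lower. Of the genes lower in the white leaf, 146 reached 1000 CPM by the V2 mean and 16 by the mean of the other 27 libraries. Those libraries include the adult blade, where the 100 most abundant genes of the V2 blade held 25.5% of the reads. How many genes the classes share was not counted. The scaling matters too, as the classes by the V2 mean show. For this the classes were kept on the TMM scale and only the fit was rescaled. By library size alone, the class of 10 to 100 CPM turned from nearly even to 8170 higher and 1742 lower, with a median of 1.07, and that of 1 to 10 CPM had 5192 and 962. The class of 100 to 1000 CPM turned to 973 higher and 844 lower, whereas that of 1000 CPM and over had 12 higher and 128 lower.

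Counted tissue by tissue, 238 features reached a mean of 1000 CPM in the blade and 65 in the white leaf, and 46 did so in both. By plain library sizes, without TMM scaling, these numbers were 118 and 66, so that the excess in the blade was smaller but in the same direction. In the band of 10 to 100 CPM the order was the other way round, with 11944 features in the white leaf and 10038 in the blade (12052 and 7902 without TMM scaling). The band of 100 to 1000 CPM depended on the scaling. It held 1734 features in the white leaf and 2298 in the blade, but 1863 and 1102 without TMM scaling. Of all 46430 features, 35739 stayed in the same class, 766 stood 2 or more classes higher in the white leaf and 437 stood 2 or more classes lower. No feature was under 1 CPM in one tissue and over 1000 CPM in the other.

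By read counts, detection in one tissue alone was more common in the white leaf. With at least 10 reads in every library of one tissue and none in the 3 of the other, 240 genes were detected in V2_LF-I alone and 47 in V2_LF alone. The rule was not the same in CPM, since 1 read was worth less in the white leaf than in the blade. The lowest mean among the 240 was 0.495 CPM, and that among the 47 was 1.36 CPM. How far this favoured the white leaf in the 2 counts was not tested. All were nuclear gene models. Most were weakly expressed, with a median of 2.53 CPM in the white leaf and 2.74 CPM in the blade, and 19 and 7 of them reached 10 CPM. Against the 3 counts that a total of 0 allows over a group, the median gene was at least 25.6-fold higher in the white leaf, and at least 65.7-fold higher in the blade. Most were also present outside the V2 leaf, since 23 of the 240 and 4 of the 47 stayed under 1 CPM on average in all of the other 9 tissues. Of the 240, 71 had their highest level outside the V2 leaf in the hypocotyl (DAS4_HY) and 61 in the ear (PS_EAR). Of the 47, 20 had it in the adult blade and 12 in the roots (DAS4_R). These bounds cover counting error only.

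The other tissues, whose libraries took no part in the direction of the calls, separated the 2 sets of genes. The tissue with the highest mean level among the other 9 was the adult blade for 54.1% of the 2178 genes more than 8-fold lower in the white leaf, for 18.3% of all genes tested, and for 0.187% (6 genes) of the 3215 more than 8-fold higher ones. The hypocotyl was highest for 23.3% of the higher set, 7.81% of all genes and 3.54% of the lower set. The unpollinated ear was highest for 23.3%, 8.41% and 0.275%, and the silks (PS_SILK) for 15.3%, 9.65% and 2.71%. The higher set thus peaked most often in the hypocotyl, the ear and the silks, and the lower set in the adult blade. In the adult blade the mean level was below that of the white leaf for 3151 of the 3215 higher genes, and above it for 2062 of the 2178 lower genes. Over all 28997 genes it was below for 13917 and above for 13800. The sets were chosen with the white leaf as one side, which by itself pushes these counts in the directions seen. The median level of the lower set was 18.9 CPM in the V2 blade, 14.0 in the adult blade, 8.39 in the tassel (PS_TAS) and 0.360 to 2.47 in the other 7 tissues. That of the higher set was 9.03 CPM in the white leaf, 8.70 in the ear, 8.52 in the hypocotyl and 5.48 in the roots. It was 3.81 in the young seed (DAP12_S), 3.06 in the silks and 2.50 in the older seed (DAP35_S). In the tassel it was 1.46, in the internode 1.15 and in the adult blade 0.218.

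**Figure D3:**
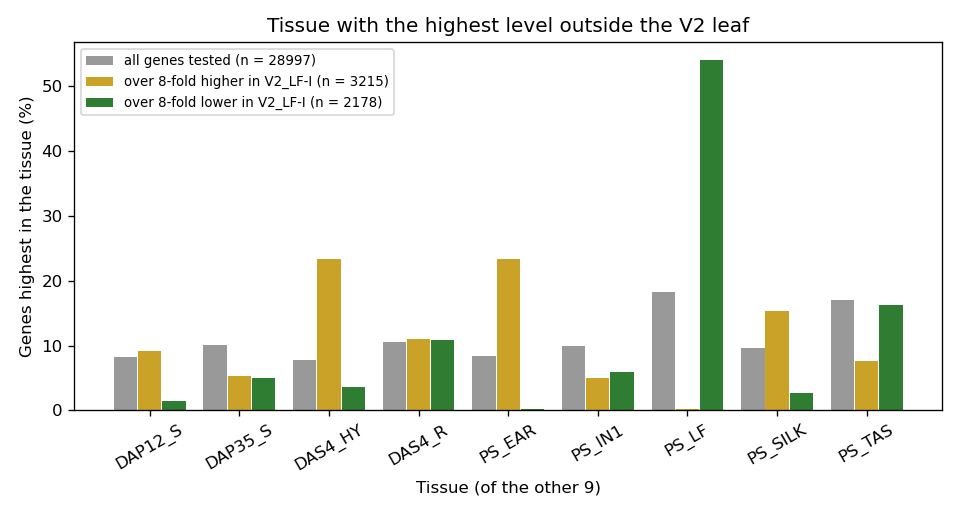
Share of genes (%) whose highest mean level among the other 9 tissues lay in each tissue, for all 28997 genes tested (grey), the 3215 over 8-fold higher in V2_LF-I (yellow) and the 2178 over 8-fold lower (green). The adult blade PS_LF takes 54.1% of the lower set and 0.187% of the higher set, and the hypocotyl DAS4_HY and the ear PS_EAR take 23.3% each of the higher set.

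Few nuclear genes could be named. The count files give nuclear genes by ID only, and the gene table at hand, of assembly NAM-5.0, matched 365 IDs, all of organelle genes. The nuclear genes described singly are therefore those to which the study's text gives a role, and a pair in each direction with the largest change. They cover a regulator of cell shape, a cell wall family, a relay of the cytokinin signal and a protein-folding family. Reads that fit several places in the genome were not counted, so that levels of near-identical copies are uncertain.

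The gene brick3 (Zm00001d023262), a component of the SCAR/WAVE complex that promotes actin assembly and shapes the lobed cells of the maize leaf epidermis, was higher in the white leaf. Its level was 165, 225 and 196 CPM in V2_LF-I replicates 1 to 3 and 47.0, 46.4 and 38.7 CPM in V2_LF, without overlap. The log2 fold change was 2.15 (SE 0.12, edgeR adjusted p = 5.8e-14). Among the other tissues it was highest in the ear, with a mean of 213 CPM, and lowest in the tassel, with 63.9 CPM, so that the V2 blade, at 44.0 CPM ± 4.60 (SD, n = 3), was below all 9 of them. Zm00001d015293, which the study describes by a role in rice leaf development, was also higher in the white leaf. It stood at 26.1, 20.7 and 27.0 CPM in V2_LF-I and at 13.9, 9.97 and 11.7 CPM in V2_LF (log2 fold change 1.06, SE 0.15, edgeR adjusted p = 8.1e-07). The groups did not overlap, but the V2 leaf was not where this gene was most abundant, since its mean was 238 CPM in the tassel and 18.5 CPM in the adult blade, the lowest of the other 9 tissues.

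Of 3 genes of the TBL family, whose Arabidopsis members act in trichomes and in the secondary cell wall, 1 was measurable. Zm00001d045721 stood at 15.4, 6.70 and 12.7 CPM in V2_LF-I, where it had 298, 117 and 445 reads, and had a total of 1 read in the V2_LF libraries. It was called higher in the white leaf (edgeR adjusted p = 1.8e-09), and the ratio of summed levels was 364, with a 95% exact counting interval from 65.2 to 14410. Its highest mean elsewhere was 45.8 CPM in the ear, followed by 14.2 CPM in the hypocotyl, and the adult blade had 0.0528 CPM. Zm00001d045720 and Zm00001d045722 had 2 reads and 1 read in the 6 libraries, too few to be tested, and no mean above 0.543 CPM in any tissue.

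The phosphotransmitter Zm00001d043505 showed the reverse pattern. Proteins of this family pass a phosphate from cytokinin receptors to response regulators in the nucleus. It had 4, 1 and 7 reads in V2_LF-I (0.206, 0.0573 and 0.200 CPM) and 77.7, 114 and 67.3 CPM in V2_LF, and was called lower in the white leaf (edgeR adjusted p = 6.2e-09). The ratio of summed levels, blade over white leaf, was 523, with a 95% exact counting interval from 299 to 1014. It was a gene of green blades in these libraries, with a mean of 96.0 CPM in the adult blade and at most 2.92 CPM, in the tassel, in the other 8 tissues.

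For the cyclophilin family member Zm00001d008209, of a family of peptidyl-prolyl isomerases that assist protein folding, the tissues overlapped and replicate 3 stood apart. The level was 115, 164 and 9.66 CPM in V2_LF-I replicates 1 to 3 and 70.8, 93.3 and 3.45 CPM in V2_LF. Replicate 3 was far below the others in both tissues. The log2 fold change of 0.78 (SE 0.74) did not pass the test (edgeR adjusted p = 0.38). The white leaf was the higher one within each of the 3 replicate numbers, and with the replicate number as a block the log2 fold change was 0.92 (edgeR adjusted p = 0.0003). No source says that a number marks 1 plant. In the other 9 tissues no mean exceeded 11.5 CPM, that of the hypocotyl.

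**Figure D4:**
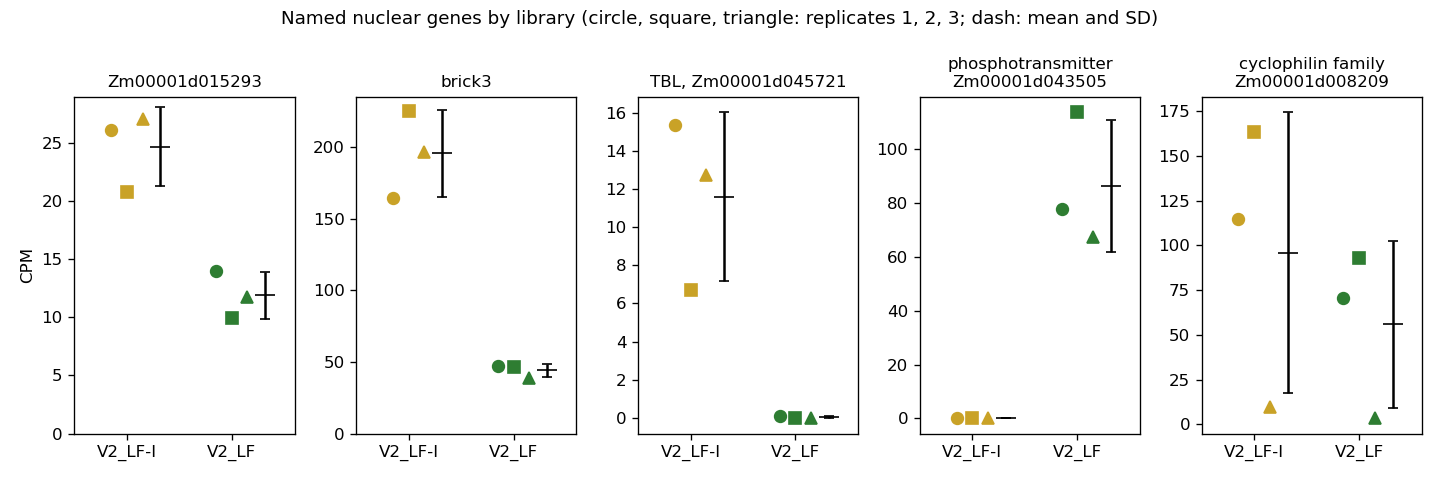
CPM of 5 nuclear genes in each V2_LF-I (yellow) and V2_LF (green) library, with a linear axis of its own for each gene, a marker per replicate, and the mean and SD of 3 libraries as a dash with bars. For brick3 the white leaf lies between 165 and 225 CPM and the blade between 38.7 and 47.0 CPM, while for the cyclophilin gene replicate 3 is low in both tissues, at 9.66 and 3.45 CPM.

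The largest changes among well-expressed genes approached presence in one tissue alone. Of the 6555 tested genes that averaged 50 CPM or more in the higher tissue, 5630 were called without overlap, 2118 of them higher and 3512 lower in the white leaf. Of all 28997 genes tested, 65.5% were called in either direction, and their share without overlap is not given here. Genes with many reads pass such a rule more easily, so the 5630 only describe the pool. This minimum was set on the scale that raises blade values. By plain library sizes 5271 genes reached it, 3635 of them with the higher mean in the white leaf and 1636 in the blade, against 2549 and 4006 with TMM scaling. At the head of the higher ones, Zm00001d028405 stood at 213, 222 and 148 CPM in V2_LF-I and had 1, 0 and 3 reads in V2_LF. Zm00001d006612 stood at 95.5, 123 and 65.4 CPM and had 1, 0 and 1 reads. Neither was confined to the white leaf. The first had a mean of 20.3 CPM in the hypocotyl and the second one of 82.1 CPM in the older seed (DAP35_S). At the head of the lower ones, Zm00001d035178 stood at 41.9, 92.8 and 152 CPM in V2_LF without a read in V2_LF-I. The 95% exact counting interval of its ratio, blade over white leaf, had a lower end of 1843. Zm00001d009022 stood at 893, 768 and 651 CPM in V2_LF and had 5, 1 and 0 reads in V2_LF-I. Outside the V2 leaf their highest means were 30.1 CPM in the internode and 38.5 CPM in the adult blade. No role is known for these 4 genes from the sources used here.

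The plastid genes that could be tested were lower in the white leaf or did not pass the test. Few organelle transcripts were counted in these libraries, which were selected for polyA tails and from which reads that fit several places were left out. The part of either in the low counts was not tested. Plastid genes took 0.00147 to 0.00231% of the gene reads in V2_LF-I and 0.00219 to 0.00228% in V2_LF. Of 9 plastid genes tested with edgeR, 6 were lower and 0 higher, with a median log2 fold change of -2.54. Of all genes tested, 31.3% were lower and 34.2% higher. All 9 fold changes were negative with edgeR and with DESeq2, so that 0 were higher at an unadjusted p under 0.05 by either tool. By library size alone 4 passed as lower (ycf3, rbcL, petD and atpF), and matK and trnK turned to 0.91 (adjusted p = 0.094) and 0.36 (adjusted p = 0.54). The plastid gene rbcL, which codes for the large subunit of Rubisco, had 4, 9 and 13 reads in V2_LF-I and 69, 41 and 44 reads in V2_LF (log2 fold change -3.80, SE 0.74, edgeR adjusted p = 0.00016). The gene ycf3, for a protein of photosystem I assembly, had 14, 16 and 14 reads against 87, 115 and 92 (-3.86, SE 0.58, edgeR adjusted p = 1.5e-06). The white and green libraries did not overlap for either gene.

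A subunit of the chloroplast ATP synthase, atpF, fell by 3.16 on the log2 scale in the white leaf (SE 0.77, edgeR adjusted p = 0.001), with 9, 12 and 4 reads against 30, 43 and 36. The gene petD, for a subunit of the cytochrome b6f complex, fell by 3.80 (SE 0.91, edgeR adjusted p = 0.00097), with 4, 2 and 11 reads against 24, 51 and 23. Of the NADH dehydrogenase-like complex, ndhA fell by 2.54 (SE 0.74, edgeR adjusted p = 0.0035) and ndhD by 2.49 (SE 0.87, edgeR adjusted p = 0.015). These 2 rested on 0 to 17 reads per library. By library size alone both passed no longer (adjusted p = 0.082 and 0.15), and ndhD also lost its call without V2_LF-I replicate 3 (-1.70, adjusted p = 0.082) and without V2_LF replicate 2 (-2.26, adjusted p = 0.053) or 3 (-2.24, adjusted p = 0.053).

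Not all plastid genes followed. The gene matK, for an intron maturase, had 258, 286 and 353 reads in V2_LF-I and 143, 164 and 159 in V2_LF, which is 70.3 to 73.4% of the plastid reads in the white leaf and 31.5 to 35.9% in the blade. Its log2 fold change was -0.21 (SE 0.48, edgeR adjusted p = 0.74). The tissues overlapped on the CPM scale. The trnK gene, within whose intron matK lies, was at -0.76 (SE 0.49, edgeR adjusted p = 0.19), and rps16, a ribosomal protein gene, at -1.97 (SE 1.07, edgeR adjusted p = 0.11). A difference between the photosynthesis genes and matK was not tested.

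**Figure D5:**
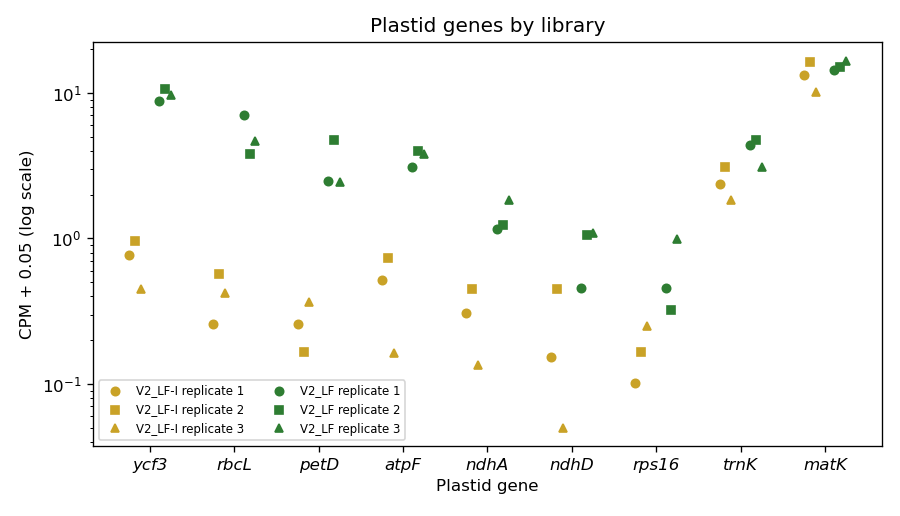
CPM plus 0.05 (log scale) of the 9 plastid genes tested, in each of the 3 V2_LF-I libraries (yellow) and the 3 V2_LF libraries (green), ordered by log2 fold change. From ycf3 to ndhA the green libraries all lie above the yellow ones, whereas for matK, with a log2 fold change of -0.21, they overlap.

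Mitochondrial genes were mostly not called, with a median log2 fold change of -0.09 over 24 genes tested. Of these, 2 (8.33%) were higher and 1 (4.17%) lower in the white leaf, against 34.2% and 31.3% of all genes tested. All mitochondrial genes together had only 170 to 278 reads in a V2 library. Some of the 24 had almost none, such as atp6 with 2, 0 and 0 reads in V2_LF-I and 0 in each V2_LF library. The low share of calls and the median are therefore no measure of how steady these genes were. The genes for respiratory chain subunits with the most reads, cox1 (-0.41, SE 0.83, edgeR adjusted p = 0.71), nad4 (0.42, SE 0.87, edgeR adjusted p = 0.72) and atp4 (-0.33, SE 0.79, edgeR adjusted p = 0.76), did not pass the test. With 4 to 37 reads per library, small changes of these genes were not detectable. By library size alone cox1 (0.71), nad4 (1.55) and atp4 (0.80) were positive, and none of them passed. The lower one was rbcL-ct, a copy of rbcL in the mitochondrial genome, with 6, 20 and 24 reads against 144, 154 and 111 (-4.23, SE 0.58, edgeR adjusted p = 8.8e-07). It shares sequence with the plastid gene, so that the division of reads between them is uncertain. The higher ones were the open reading frames orf179 (2.52, edgeR adjusted p = 0.01) and orf101-a (1.36, edgeR adjusted p = 0.023). Both rested on few reads, and without V2_LF-I replicate 1 neither passed (1.62, adjusted p = 0.11, and 1.02, adjusted p = 0.11). Nor did orf101-a pass without V2_LF replicate 3 (0.87, adjusted p = 0.11).

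Noncoding RNA features other than microRNA precursors took 0.0214 to 0.0267% of the gene reads in the white leaf and 0.0113 to 0.0144% in the blade. Of 235 tested, 44 were higher and 27 lower, with a median log2 fold change of 0.00. This is 18.7% and 11.5%, below the shares of all genes tested. Of the 154 microRNA precursors, 1 had a single read in the 6 libraries.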

How the data were processed

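RNA sequencing of 11 B73 tissues, 3 libraries each, was analysed, and the V2 leaf pair is reported. Per the study's methods, the authors used Trimmomatic for trimming, sortMeRNA against ribosomal reads and STAR for alignment to AGPv4 (B73 RefGen_v4). The files they deposited hold raw counts of read pairs per gene, not normalized, and the reverse column, which holds the strand that the TruSeq kit marks, was used. Reads not assigned to a gene, 10.6 to 13.9% of a V2 file, were left out. Depth was 17.6 to 32.8 M reads on genes.

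Counts were filtered with filterByExpr (minimum count 10, minimum total 15), scaled by TMM and fitted with edgeR 4.0.16 (R 4.3.3) in 1 quasi-likelihood model of all 33 libraries with 22 residual degrees of freedom, and p-values were adjusted by the method of Benjamini and Hochberg. The contrast is V2_LF-I minus V2_LF. The SE is the fold change over the square root of F. The tests were checked on simulated data. Alternatives were DESeq2 1.42.0, RLE and plain library sizes, no filter, the unstranded column, the 6 libraries alone with and without a replicate block, thinning, a test against 2-fold, other classes and detection minimums, and each library left out. Replicates differed by more than sampling noise (chi-square per degree of freedom 11.8 to 32.2). Nothing in the labels says more of their independence than that they are separate plants. Named genes were those with an ID in the study's text, organelle genes with a RefSeq symbol, and the 2 largest changes in each direction among genes called without overlap and with at least 50 CPM. The V2 leaf pair and the gene lists were proposed with earlier results of these data known, while the libraries in each group follow from their labels. Gene lists, cell type markers and promoter motifs, which need names for nuclear IDs, were not run, so the tissue labels were not checked against markers.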

Additional observations from a re-analysis of the deposited data

Results flagged for a closer look

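Reads were present in the forward column of the count files, which holds reads on the strand opposite to the one the kit marks and which no comparison above uses. Its share of the stranded gene reads was 1.12% ± 0.0600 (SD, n = 3) in V2_LF-I and 1.30% ± 0.0407 (SD, n = 3) in V2_LF. What these reads are was not tested. The groups did not overlap (exact two-sided permutation test, p = 0.1, the smallest value that 3 against 3 allows).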

How the results depend on the processing

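The calls depended mainly on scaling. By library size alone, 16508 genes were higher and 4064 lower in V2_LF-I, 13742 and 3161 beyond 2-fold, 5688 and 1079 beyond 8-fold, and 388 lower beyond 32-fold. By class, with the classes kept on the TMM scale, it gave 2161 higher and 388 lower under 1 CPM, and 962 lower at 1 to 10 CPM. It also gave 8170 and 1742 at 10 to 100 CPM, 973 and 844 at 100 to 1000 CPM, and 12 higher at 1000 CPM and over. Classes from the other 27 libraries gave 811 higher under 1 CPM, 639 lower at 100 to 1000 CPM, and 12 higher and 16 lower at 1000 CPM and over. The fit on the 6 V2 libraries alone, which tested 22793 genes, gave 623 higher and 123 lower under 1 CPM. DESeq2 gave 9526 higher and 9692 lower over all genes, and RLE scaling 9518 and 9549. Genes detected in one tissue alone were 483 (V2_LF-I) and 122 (V2_LF) with a minimum of 3 reads, and 119 and 16 with 30 reads. The cause of these differences was not tested, other than that fewer genes were tested or stricter minimums used where stated.

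Leaving out each library in turn gave 9599 to 9782 higher and 8362 to 8897 lower genes, and 25.6 to 26.8 percentage points for the gap in the top 100 genes. Apart from the values given here and under the block, the alternatives kept the counts within 1.5 times the values in the report, and none of the named genes that passed the test changed direction in any alternative that tested it. The called genes ndhD and orf179 did not pass the filter in the 6 libraries alone, with or without the block, and were not tested there. Of the genes that did not pass, matK, trnK, cox1 (0.71), atp4 (0.80) and several other mitochondrial genes turned from negative to positive by library size alone. Of the named genes that did not pass, Zm00001d008209 did by library size alone (log2 1.89, adjusted p = 0.028), orf140-b likewise (2.37, adjusted p = 0.018), trnK with DESeq2 (-0.84, adjusted p = 0.048) and in the 6 libraries alone (-0.76, adjusted p = 0.04), and rps2B without V2_LF-I replicate 1 (-4.99, adjusted p = 0.044). The called orf101-a did not pass after thinning (1.17, adjusted p = 0.067) or in the 6 libraries alone (1.36, adjusted p = 0.098).

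Nothing in the sources says that a replicate number marks 1 plant or batch. Deviations from the group means correlated at 0.0904 to 0.152 for same-numbered libraries and at -0.112 to -0.0283 for the others (log2 CPM, prior count 2), and every library correlated best with its own number. The deviations of a gene cancel out within a tissue, so positive values for the same number force negative ones among the others. The negative values are therefore no separate result. On the log2 of CPM plus 1 the same-numbered values were 0.120 to 0.222. The numbers were not taken as pairs. With the replicate number as a block, 9410 genes were higher and 8522 lower, with 611 and 128 under 1 CPM, Zm00001d008209 passed (0.92, adjusted p = 0.0003) and so did trnK (-0.74, adjusted p = 0.029).

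In the class under 1 CPM and for organelle genes with fewer than 10 reads in a library, depth limits what can be detected. Classes by level per kb were planned and not run, since no gene lengths of this build were at hand.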

Other observations

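A small number of genes stood apart in the same replicate number of both V2 tissues. With a margin of 4-fold on CPM plus 0.5, 60 genes had 1 V2_LF-I library above or below both others, 45 of them in replicate 2 from below, and 38 genes had 1 such V2_LF library. For 8 genes this was so in both tissues, each time with the same number, and for none with different numbers. With a margin of 2-fold, an alternative chosen after seeing the data, there were 51 genes with the same number and 7 with different ones, and with 2 CPM added in place of 0.5 there were 4 and 0. The cyclophilin gene Zm00001d008209, low in replicate 3 of both tissues, was among the 8. The clearest opposite case, chosen after its values were seen, was Zm00001d036575, with 17.4, 0.860 and 0.572 CPM in V2_LF-I replicates 1 to 3 and 29.9, 0.823 and 0.835 CPM in V2_LF. Whether same-numbered libraries came from 1 plant is not given in the sources used here, and what sets these genes apart was not tested.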
